A study of Mus musculus with 39 samples.

Results

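The genes described here are 10 muscle stress genes, Ankrd1, Ankrd2, Ankrd23, Csrp3, Xirp1, Xirp2, Nmrk2, Sprr1a, Ky and Zyx, among the 38293 genes of the deposited count table. They were chosen by symbol, as muscle genes inducible by stress or strongly shifted, with no contrast named, and all 10 were found. RNA of left ventricles from 39 C57BL6/J mice was sequenced, with 1 library a heart. Homozygous Pln R14del/R14del mice were sampled at 3, 5 and 8 weeks (4 a group) beside wild type mice of the same ages (4, 4 and 3), and heterozygous Pln wt/R14del mice at 8 weeks (4). Pln encodes phospholamban, the inhibitor of the sarcoplasmic reticulum calcium pump, and the mutant alleles lack arginine 14. None of these mice had surgery. Male wild type mice had surgery on the left anterior descending coronary artery at 12 weeks. In the ischemia-reperfusion (I/R) group (4) the ligation was temporary and hearts were taken 3 days later at 12 weeks of age. In the infarction (MI) group (4) it was permanent and hearts were taken 8 weeks later at 20 weeks of age. The 4 sham hearts were 2 of 12 weeks and 2 of 20 weeks and were used as 1 group. The tissue of the surgery groups came from the area remote from the infarct, so the values do not describe the infarct itself.

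A beating heart reads mechanical load partly at the Z-disc and along the giant protein titin, and a set of proteins there changes in amount when load or damage rises. The muscle ankyrin repeat proteins Ankrd1 (CARP), Ankrd2 and Ankrd23 (DARP) bind the N2A region of titin. Csrp3 (muscle LIM protein) sits at the Z-disc, and Xirp1 and Xirp2 are actin-binding Xin repeat proteins of the intercalated disc. Nmrk2 phosphorylates nicotinamide riboside on the way to NAD, Sprr1a is a small proline-rich protein best known from the cornified envelope of skin, Ky is a transglutaminase-like muscle protein whose loss causes kyphoscoliosis in mice, and Zyx (zyxin) is a LIM protein of focal adhesions and actin fibres.

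The rule for choosing members is taken to have used the shifts of homozygous against wild type hearts. So the homozygous contrasts at 5 and 8 weeks, and homozygous against heterozygous hearts, are described here with no p for a member. The other contrasts are given with their tests. Earlier results of these data were known when the members were chosen, so those tests may not be independent of the choice. Libraries held between 9402904 and 19320791 gene counts, and levels are CPM (counts as a rate of the library total), scaled with the TMM method over all 39 libraries, with the SD between hearts. Fold changes are log2 values with standard errors from edgeR's quasi-likelihood fits, and a gene is called where the Benjamini-Hochberg adjusted p over all genes tested is under 0.05. The cardiomyocyte markers (11 genes, Pln among them) summed to at least 32770 CPM in every heart, as a ventricle should give. At 8 weeks Pln itself averaged 1856 ± 257 CPM in homozygous hearts, against 5204 ± 258 CPM in wild type hearts (SD, n = 4 and 3), and counts per gene do not show the deletion. The 5-week libraries carry names of another form in the labels than the 3-week and 8-week libraries, so levels set across ages may also hold a difference between library sets, which was not tested. The tissue is whole ventricle, so fewer cells of a type and less RNA per cell cannot be told apart.

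Per kilobase of annotated exon, the members covered a wide range. In wild type hearts at 8 weeks Csrp3 stood at 525 ± 21.2 CPM per kb, Ankrd1 at 394 ± 31.8 and Ankrd23 at 208 ± 17.9 (SD, n = 3). Xirp1 and Xirp2 followed at 60.3 ± 1.66 and 46.1 ± 4.81 CPM per kb, Zyx at 15.9 ± 0.673, Ky at 7.12 ± 1.17 and Nmrk2 at 3.12 ± 0.612. Ankrd2 and Sprr1a were nearly silent there, at 0.364 ± 0.167 and 0.159 ± 0.0138 CPM per kb. In homozygous hearts at 8 weeks the level of Ankrd1 was 1515 ± 250 CPM per kb and that of Sprr1a 88.2 ± 45.2 (SD, n = 4), so Sprr1a then stood above Zyx at 37.9 ± 1.02 CPM per kb.

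**Figure D1:**
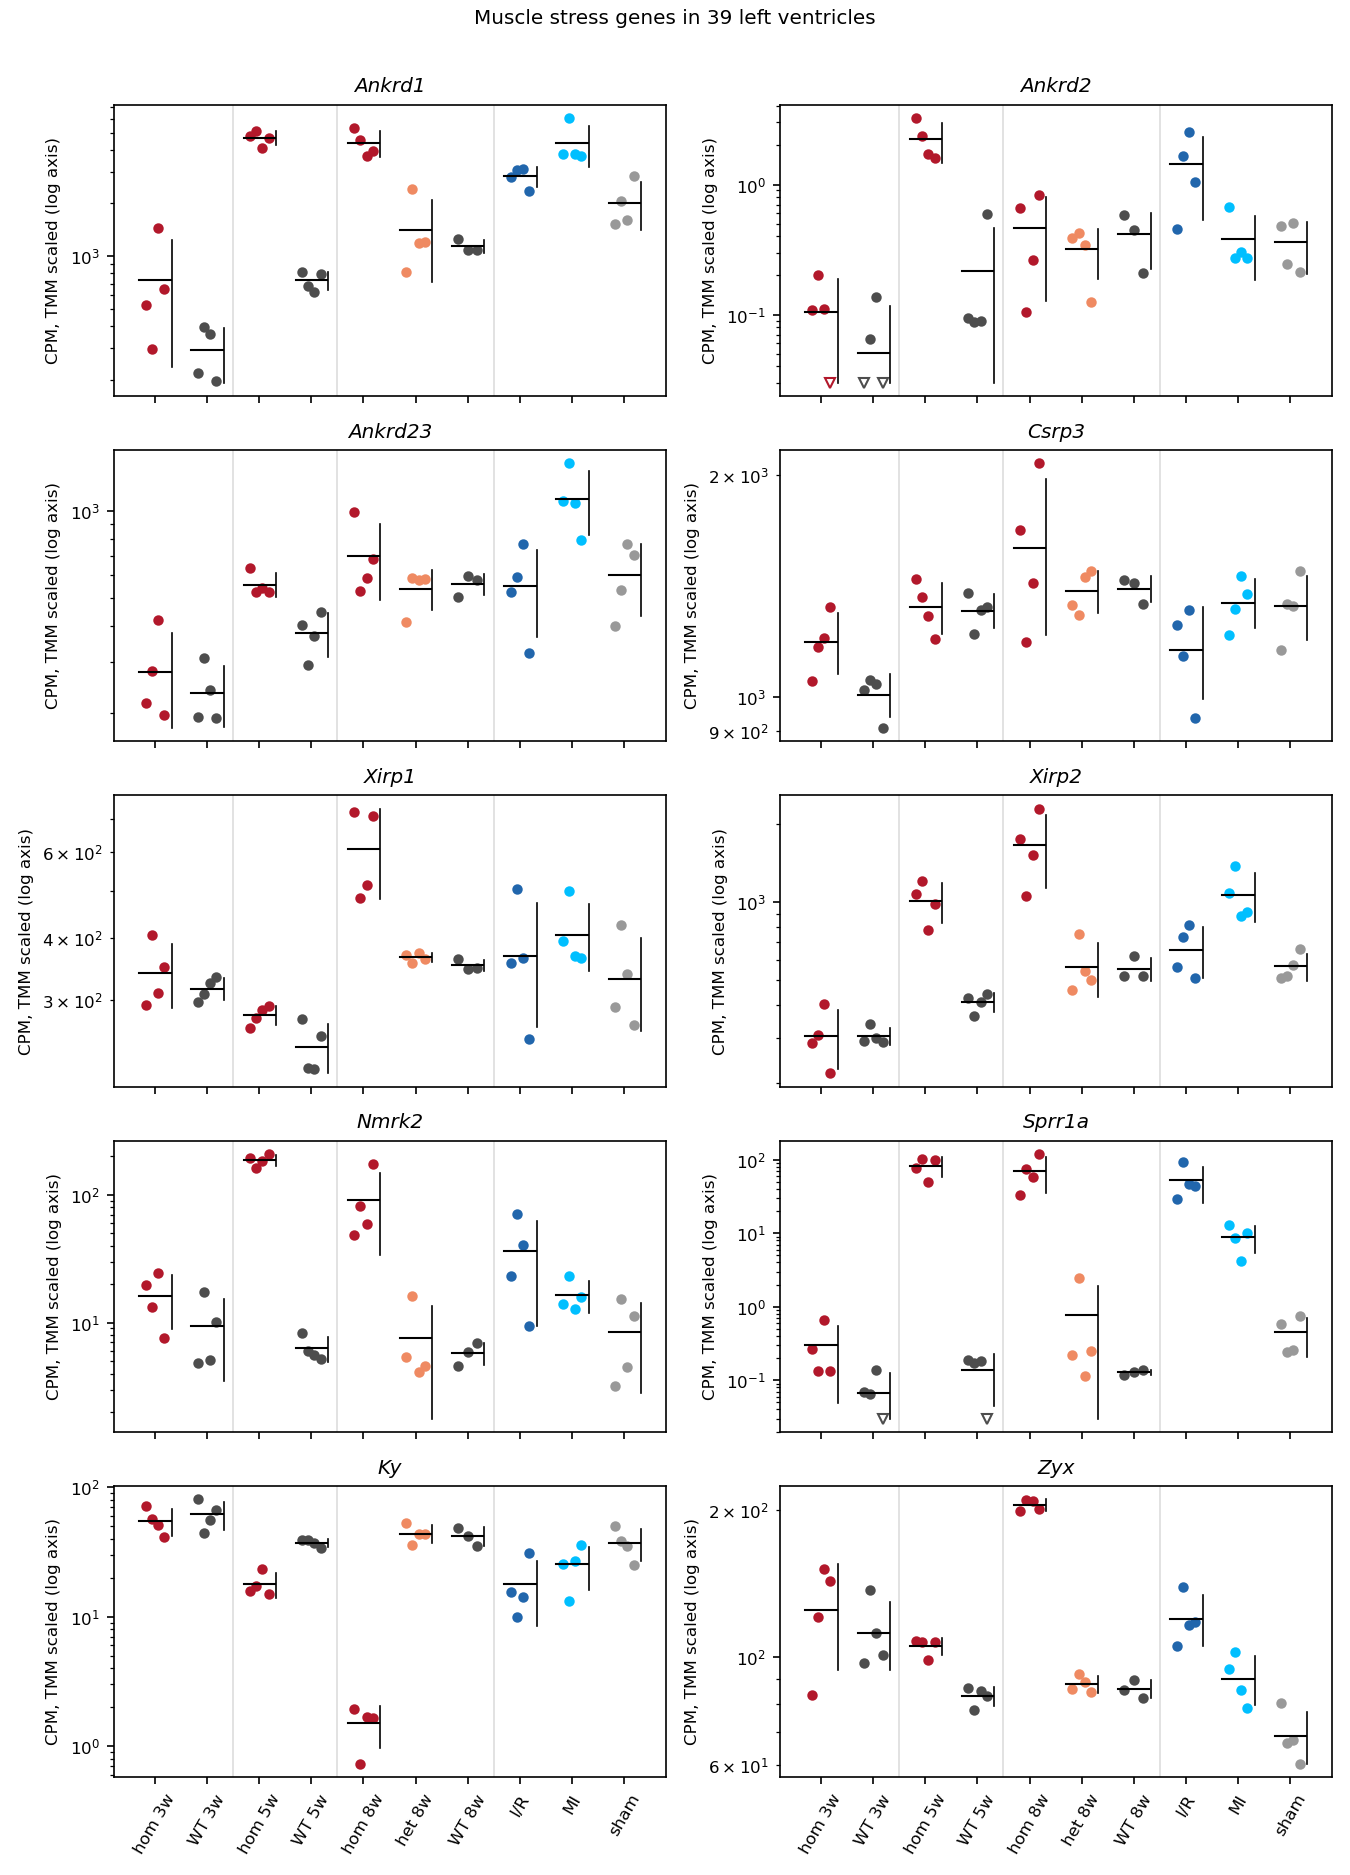
Level of each of the 10 genes in every heart (points, CPM scaled with TMM, log axis that does not start at 0) by group, with the group mean (horizontal line) and SD (vertical bar, cut off at 0.03 CPM where it would reach lower); open triangles at 0.03 CPM are hearts with 0 counts. Ankrd1, Xirp2, Nmrk2 and Sprr1a stand high in homozygous hearts at 5 and 8 weeks, where Ky stands low, while Csrp3 stays between 908 and 2075 CPM in all 39 hearts.

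Sprr1a went furthest. Homozygous hearts at 5 weeks held 78.0, 104, 49.3 and 100 CPM of Sprr1a, against counts of 2, 2, 2 and 0 reads in the 4 wild type libraries. Homozygous hearts at 8 weeks held 32.7, 74.1, 58.4 and 119 CPM, against 2 reads in each of the 3 wild type libraries. No homozygous heart of either age came near a wild type heart, and the fitted differences were 9.18 ± 0.36 at 5 weeks and 9.05 ± 0.87 at 8 weeks (log2, SE). Both rest on 6 reads in all on the wild type side, so their size is loosely fixed. At 3 weeks the gene was below the filter on low counts, with 21 reads over the 4 homozygous and 4 reads over the 4 wild type hearts.

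After surgery Sprr1a rose in both injured groups. It stood at 29.4, 91.8, 47.3 and 43.4 CPM in I/R hearts, 13.0, 8.49, 4.24 and 10.2 CPM in MI hearts, and 0.577, 0.244, 0.255 and 0.738 CPM in sham hearts. The 3 groups did not overlap. The rise was 6.84 ± 0.51 for I/R against sham (log2, SE, edgeR's quasi-likelihood test, adjusted p = 5.76e-07) and 4.27 ± 0.59 for MI against sham (edgeR adjusted p = 0.000586), and I/R against MI differed by 2.57 ± 0.33 (edgeR adjusted p = 0.000123). The sham level rests on 18 reads in all, and the gene was in the fit through its reads in injured hearts. With the 2 shams of matching age alone, the rises were 6.32 for I/R and 5.10 for MI.

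Sprr1a belongs to a cluster of related genes on chromosome 3, where reads that match several genes could in principle be split or dropped. The counts do not show how such reads were handled. So 0 counts alone cannot tell a silent gene from one whose reads were dropped. Of the 21 other genes listed for the cornified envelope and the SPRR family, 12 had 0 counts in all 39 libraries, Sprr1b among them, and none but Tgm1 passed the filter on low counts in any comparison. Sprr1a had 12684 reads over the 39 libraries, and the next of the list, Tgm1 (transglutaminase 1, which crosslinks envelope proteins), had 296. Tgm1 averaged 1.44 ± 0.211 CPM in I/R and 0.269 ± 0.112 CPM in sham hearts (SD, n = 4 each) and rose by 2.35 ± 0.50 (log2, SE, edgeR adjusted p = 0.0024), a call lost with the 12-week shams alone. It was in that fit through its reads in I/R hearts. Of 10 markers of keratinocytes, 2 (Krt5 and Dsg3) had 0 counts in all homozygous hearts of 8 weeks, and the rest had some reads there. In I/R hearts 3 (Krt15, Dsg3 and Dsc3) had 0 counts. The 10 markers summed to at most 5.58 CPM in any heart. Among the homozygous hearts of 8 weeks that sum was 3.26 CPM in the fourth heart, which held 119 CPM of Sprr1a, and 2.38 to 2.78 CPM in the other 3, and its part in the Sprr1a value was not tested.

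RefSeq promoters (GRCm38.p6) were found for 9 of the 10 members, with 11 start sites. Within 250 bases before the start, the AP-1 motif (TGANTCA, either strand) was found at 3 of the 11 starts, those of Sprr1a, Xirp2 and Zyx, and in 6.75% of all 32851 mouse promoters. The MCAT motif (CATTCC, which reads GGAATG on the other strand) was found at 2, those of Ankrd1 and of one Ankrd23 start, against 12.6% of all promoters. A MEF2 site was found at 1, that of Xirp2 (2.92% of all), and a CArG box at none (1.47% of all). Sprr1a holds 2 AP-1 matches, 146 and 116 bases before its start. The Sprr1a, Xirp2 and Ankrd1 stretches are shown as the members with a motif match whose levels differ most between groups. Capitals mark the motif matches, which are letters and not measured binding sites. Sprr1a is read on the minus strand (chr3:92485896-92486131), Xirp2 on the plus strand (chr2:67445752-67446001), and the 2 Ankrd1 stretches on the minus strand (chr19:36120037-36120066 and chr19:36119950-36119979), all 5′ to 3′. The Ankrd1 stretches lie inside the gene's span in GENCODE, before the RefSeq start, and are kept short for that reason. The Zyx and Ankrd23 matches also lie inside the GENCODE spans of their genes. For neither Csrp3 start were the bases just after it found in a GENCODE transcript.
Sprr1a, AP-1 in capitals: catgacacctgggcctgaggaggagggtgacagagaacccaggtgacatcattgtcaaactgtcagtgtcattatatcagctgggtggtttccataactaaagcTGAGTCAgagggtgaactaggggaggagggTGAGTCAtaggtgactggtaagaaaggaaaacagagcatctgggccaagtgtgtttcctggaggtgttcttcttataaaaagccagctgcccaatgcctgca
Xirp2, AP-1 and then MEF2 in capitals: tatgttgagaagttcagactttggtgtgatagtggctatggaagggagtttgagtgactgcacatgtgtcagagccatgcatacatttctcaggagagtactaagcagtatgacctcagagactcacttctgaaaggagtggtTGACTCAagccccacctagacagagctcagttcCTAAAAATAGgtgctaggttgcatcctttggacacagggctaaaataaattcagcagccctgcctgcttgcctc
Ankrd1, first MCAT in capitals: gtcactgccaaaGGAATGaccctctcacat
Ankrd1, second MCAT in capitals: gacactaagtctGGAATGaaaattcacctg

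Ankrd1 lies on chromosome 19 (36111961 to 36120099, minus strand). Homozygous hearts at 5 weeks held 4763, 5115, 4096 and 4682 CPM, against 810, 680, 629 and 794 CPM in hearts of wild type mice. At 8 weeks homozygous hearts held 5301, 4560, 3671 and 3951 CPM, heterozygous hearts 818, 2395, 1193 and 1196 CPM, and wild type hearts 1244, 1082 and 1088 CPM. All homozygous hearts of both ages stood above all others of their age, by 2.69 ± 0.10 at 5 weeks and 1.95 ± 0.30 at 8 weeks (log2, SE). At 3 weeks the hearts overlapped, at 528, 299, 1444 and 654 CPM in homozygous hearts, against 219, 398, 360 and 195 CPM in wild type hearts. The third homozygous heart was the highest there. The difference of 1.32 ± 0.41 did not pass the test (edgeR adjusted p = 0.299), and it was 0.75 without that heart. In a fit of all 39 libraries it was 1.33 (edgeR adjusted p = 0.0468).

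After surgery Ankrd1 was at 2800, 3074, 3114 and 2341 CPM in I/R hearts, 3814, 6063, 3798 and 3716 CPM in MI hearts, and 1529, 2059, 1598 and 2860 CPM in sham hearts. MI hearts stood above every sham heart, and the second MI heart was far above the other 3. One 12-week sham stood within the I/R range. Ankrd1 rose by 1.11 ± 0.20 in MI against sham (log2, SE, edgeR adjusted p = 0.00331), and the 0.50 ± 0.20 of I/R against sham did not pass (edgeR adjusted p = 0.0696). I/R against MI differed by -0.61 ± 0.20 (edgeR adjusted p = 0.0411). That last call ended with DESeq2 (adjusted p = 0.06), with scaling by library size, in the fit of all 39 libraries, and when any 1 of the I/R hearts, or the first or second MI heart, was left out. The I/R rise passed when the fourth sham was left out (edgeR adjusted p = 0.00767), with limma-voom (adjusted p = 0.021), with no filter and with scaling by library size (edgeR adjusted p = 0.0133).

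Among the 8 members tested in normal growth, Ankrd1 had the steepest course. Wild type hearts averaged 293 ± 101 CPM at 3 weeks, 728 ± 88.1 at 5 weeks and 1138 ± 91.8 at 8 weeks (SD, n = 4, 4 and 3). Wild type hearts at 8 weeks were 1.96 ± 0.18 above those at 3 weeks (log2, SE, edgeR adjusted p = 1.54e-06), and the groups did not overlap. The 20-week and 12-week shams, at 1529 to 2860 CPM, stood higher still, although age and surgery differ there together.

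Ankrd23 (chromosome 1, 36530188 to 36536883, minus strand) overlaps Gm42417 on the same strand, so its counts are uncertain. It shared the growth course of Ankrd1, with 234 ± 55.8 CPM at 3 weeks, 378 ± 65.5 at 5 weeks and 560 ± 48.4 at 8 weeks in wild type hearts, a rise of 1.26 ± 0.15 between 8 and 3 weeks (log2, SE, edgeR adjusted p = 1.9e-05). In homozygous hearts it was 0.57 ± 0.10 above wild type at 5 weeks and 0.33 ± 0.20 at 8 weeks, where the groups overlapped. MI hearts held 1087, 1465, 1071 and 792 CPM, against 401, 532, 773 and 707 CPM in sham hearts. No MI heart fell within the sham range, and the rise was 0.87 ± 0.25 (edgeR adjusted p = 0.0348). I/R hearts, at 524, 590, 768 and 322 CPM, differed from sham by -0.12 ± 0.24, which did not pass (edgeR adjusted p = 0.746), and stood below MI by -0.99 ± 0.25 (edgeR adjusted p = 0.00991). The MI call was lost with the 20-week shams alone (edgeR adjusted p = 0.141) and without MI heart 1, 2 or 3 or sham 1 or 2.

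Ankrd2 (chromosome 19, 42036000 to 42045110, plus strand), the ankyrin repeat protein of slow skeletal muscle, was barely read. It had 38, 30, 19 and 21 reads in homozygous hearts at 5 weeks, against 1, 1, 1 and 7 in wild type hearts, a difference of 3.28 ± 0.50 (log2, SE). At 8 weeks homozygous hearts had 11, 2, 5 and 15 reads and wild type hearts 10, 7 and 3, so the groups overlapped. I/R hearts had 6, 20, 33 and 18 reads, MI hearts 8, 3, 4 and 3, and sham hearts 5, 2, 6 and 2. The gene was below the filter on low counts in every comparison but the 5-week one. Without the filter the I/R value was 1.92 (edgeR adjusted p = 0.0159). In the fit with the 12-week shams alone, where it cleared the filter, the I/R value of 1.99 did not pass (edgeR adjusted p = 0.0923). It also cleared the filter, and passed, without the first I/R heart (edgeR adjusted p = 0.0031) and without any 1 sham (edgeR adjusted p = 0.0231 to 0.0421). In all these fits it cleared the filter through its I/R reads. The unfiltered value for wild type hearts at 8 against 3 weeks was 2.80 (edgeR adjusted p = 0.0276). Skeletal muscle markers (13 genes) summed to between 25.3 and 98.5 CPM over all hearts, and at 5 weeks to 75.7 to 98.5 CPM in homozygous hearts, against 45.2 to 51.1 CPM in wild type hearts. Of the 13 markers 2 passed the filter on low counts at 5 weeks and both were called higher in homozygous hearts, where 22.3% of all genes were. Myod1 and Myog were at 0 counts in all hearts of both groups at that age, and the part of such markers in the 5-week Ankrd2 value was not tested.

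The plot of Xirp2 against Ankrd1 places the 2 genes side by side. Xirp2 (chromosome 2, 67446002 to 67526614, plus strand; it overlaps the antisense gene Gm13601) was at 1072, 1208, 784 and 985 CPM in homozygous hearts of 5 weeks, against 428, 364, 411 and 440 CPM in hearts of wild type mice. At 8 weeks it was at 1761, 1053, 1519 and 2298 CPM in homozygous hearts, 458, 753, 541 and 500 CPM in heterozygous hearts and 519, 619 and 519 CPM in wild type hearts. Neither age showed any overlap between homozygous and wild type hearts, and the differences were 1.31 ± 0.10 at 5 weeks and 1.60 ± 0.24 at 8 weeks (log2, SE). At 3 weeks the difference was 0.00 ± 0.16 (edgeR adjusted p = 0.998).

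Xirp2 was at 560, 737, 820 and 507 CPM in I/R hearts, 1086, 1378, 883 and 919 CPM in MI hearts and 511, 520, 571 and 658 CPM in sham hearts. MI hearts stood clear of both other groups, which overlapped each other. It rose by 0.92 ± 0.16 in MI against sham (log2, SE, edgeR adjusted p = 0.00305) and differed by -0.69 ± 0.16 for I/R against MI (edgeR adjusted p = 0.00721), while I/R against sham, at 0.22 ± 0.16, did not pass (edgeR adjusted p = 0.335). In wild type growth it was 0.87 ± 0.08 higher at 8 than at 3 weeks (edgeR adjusted p = 2.37e-06). Over the 10 group means, log2 levels of Xirp2 and Ankrd1 correlated at r = 0.923, the closest pair among the members, as a description over groups that share library sets.

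**Figure D2:**
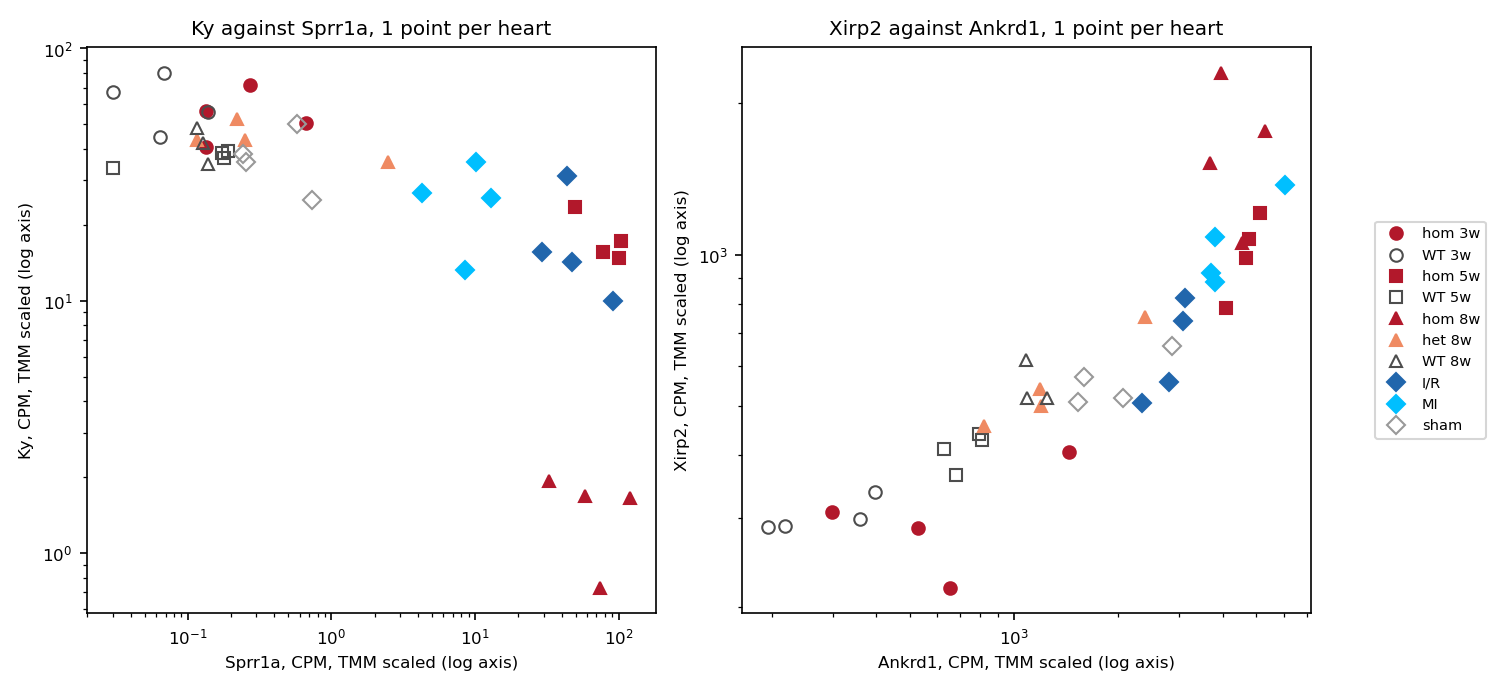
Levels of 2 pairs of members in each of the 39 hearts (1 point a heart, CPM scaled with TMM, both axes log, 0 counts drawn at 0.03 CPM on the Sprr1a axis): Ky against Sprr1a on the left and Xirp2 against Ankrd1 on the right. Homozygous hearts of 8 weeks stand alone at the low end of Ky (0.731 to 1.93 CPM), and I/R and MI hearts part in the right panel, with MI hearts higher on both axes.

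Xirp1 (chromosome 9, 120013755 to 120023598, minus strand) overlaps the macrophage gene Cx3cr1 on the same strand, so some of its reads are uncertain. It held 722, 482, 514 and 709 CPM in homozygous hearts at 8 weeks, against 357 to 374 CPM in heterozygous hearts and 363, 346 and 348 CPM in wild type hearts. The homozygous hearts stood apart, by 0.80 ± 0.14 against wild type (log2, SE). At 5 weeks the value was 0.23 ± 0.08, with the groups overlapping. No tested comparison called it: the values were 0.16 for I/R (edgeR adjusted p = 0.554) and 0.30 for MI against sham (edgeR adjusted p = 0.326). Macrophage markers (9 genes) summed at 8 weeks to 1555 to 2667 CPM in homozygous hearts, against 467 to 573 CPM in wild type hearts, and their part in the Xirp1 value was not tested.

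Csrp3 (chromosome 7, 48830398 to 48848033, minus strand) was the steadiest member. At 8 weeks it averaged 1594 ± 380 CPM in homozygous hearts, against 1403 ± 56.6 CPM in wild type hearts (SD, n = 4 and 3), and the groups overlapped. Homozygous differed from wild type by 0.03 ± 0.07 at 5 weeks and 0.19 ± 0.16 at 8 weeks (log2, SE). It passed in wild type growth alone among the tested comparisons, with 1007 ± 67.3 CPM at 3 weeks and a rise of 0.48 ± 0.07 by 8 weeks (edgeR adjusted p = 0.000115).

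Nmrk2 (chromosome 10, 81198170 to 81202051, minus strand) overlaps the antisense gene Atcayos. It was at 193, 162, 184 and 208 CPM in homozygous hearts at 5 weeks, against 8.32, 6.01, 5.58 and 5.22 CPM in hearts of wild type mice. At 8 weeks it was at 48.5, 81.3, 59.4 and 174 CPM in homozygous, 5.34, 16.3, 4.14 and 4.58 CPM in heterozygous hearts and 4.61, 5.85 and 6.88 CPM in wild type hearts. Every homozygous heart lay above every other of its age, by a fitted 30.1-fold at 5 weeks (4.91 ± 0.12, log2, SE) and 15.9-fold at 8 weeks (3.99 ± 0.56). At 3 weeks 19.5, 13.3, 24.3 and 7.56 CPM in homozygous hearts overlapped 4.85, 17.4, 5.09 and 10.2 CPM in wild type hearts, and the 0.79 ± 0.42 did not pass (edgeR adjusted p = 0.504).

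After surgery Nmrk2 was at 23.2, 71.1, 40.4 and 9.37 CPM in I/R hearts, 13.9, 23.0, 12.7 and 16.0 CPM in MI hearts and 3.17, 15.2, 4.51 and 11.2 CPM in sham hearts. The fourth I/R heart lay inside the sham range, and so did 2 MI hearts. It rose by 2.11 ± 0.53 in I/R against sham (log2, SE, edgeR adjusted p = 0.00684). MI against sham, at 0.98 ± 0.54, and I/R against MI, at 1.14 ± 0.49, did not pass (edgeR adjusted p = 0.266 and 0.115).

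Ky (chromosome 9, 102505750 to 102546239, plus strand) moved the other way. At 3 weeks it was at 71.8, 56.6, 50.7 and 40.9 CPM in homozygous hearts, against 80.1, 44.4, 56.1 and 67.0 CPM in wild type hearts, which overlapped (-0.17 ± 0.19, log2, SE, edgeR adjusted p = 0.773). At 5 weeks it was at 15.6, 17.3, 23.5 and 14.8 CPM in homozygous hearts, against 39.1, 38.7, 36.7 and 33.6 CPM in hearts of wild type mice. At 8 weeks homozygous hearts held 1.93, 0.731, 1.69 and 1.66 CPM, heterozygous hearts 52.6, 35.7, 43.3 and 43.5 CPM and wild type hearts 48.6, 42.1 and 34.9 CPM. Homozygous hearts were below all others from 5 weeks on, by -1.05 ± 0.12 at 5 weeks and -4.80 ± 0.22 at 8 weeks, which is 27.8-fold lower.

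At 8 weeks the summed cardiomyocyte markers (11 genes) lay between 32770 and 61668 CPM in homozygous hearts, against 88044 to 97691 CPM in wild type hearts. The sum includes Pln, which was itself lower in those homozygous hearts. The part of these markers in the Ky value was not tested. Ky was at 15.6, 9.94, 14.3 and 31.2 CPM in I/R hearts, 25.6, 13.3, 26.8 and 35.4 CPM in MI hearts and 50.0, 38.0, 35.4 and 25.1 CPM in sham hearts. It fell by 1.04 ± 0.32 in I/R against sham (log2, SE, edgeR adjusted p = 0.0209), with the fourth I/R heart inside the sham range. MI against sham, at -0.56 ± 0.31, did not pass (edgeR adjusted p = 0.273). The I/R call was lost with the 12-week shams alone (edgeR adjusted p = 0.0971), with scaling by library size (edgeR adjusted p = 0.0606) and without I/R heart 2 or 3 or sham 1. Cardiomyocyte markers summed to 44685 to 52343 CPM in I/R and 61233 to 81038 CPM in sham hearts, and their part in the Ky value was not tested. Ky was 0.56 ± 0.15 lower in wild type hearts at 8 weeks than at 3 weeks (edgeR adjusted p = 0.0172), a call lost in the fit of all 39 libraries and without wild type heart 2 or 3 of 8 weeks.

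Zyx (chromosome 6, 42349630 to 42360213, plus strand) overlaps Gm44284 and Epha1 on the other strand. At 8 weeks it was at 199, 210, 209 and 201 CPM in homozygous hearts, 85.8, 92.2, 88.7 and 84.7 CPM in heterozygous hearts and 85.6, 89.8 and 82.5 CPM in wild type hearts. The homozygous hearts, close to each other, stood far from the rest, by 1.26 ± 0.07 against wild type (log2, SE), and at 5 weeks by 0.35 ± 0.06, again without overlap. Zyx was at 105, 139, 116 and 118 CPM in I/R hearts, 94.3, 102, 85.3 and 78.7 CPM in MI hearts and 80.5, 66.5, 67.7 and 60.4 CPM in sham hearts. All I/R hearts lay above all others of the surgery set. It rose by 0.80 ± 0.11 in I/R against sham (edgeR adjusted p = 8.58e-05) and by 0.39 ± 0.11 in MI against sham (edgeR adjusted p = 0.0373), and I/R against MI differed by 0.42 ± 0.11 (edgeR adjusted p = 0.0147). The MI call was lost with the 20-week shams alone (edgeR adjusted p = 0.068), without MI heart 1, 2 or 3 and without sham 2, 3 or 4, and the I/R against MI call without I/R heart 2 or MI heart 4. In growth Zyx was 0.38 ± 0.09 lower in wild type hearts at 8 than at 3 weeks (edgeR adjusted p = 0.0114), a call lost in the fit of all 39 libraries. Macrophage markers summed to 1197 to 1904 CPM in I/R, 523 to 725 CPM in MI and 332 to 544 CPM in sham hearts, and fibroblast markers (8 genes) to 4194 to 7785, 2165 to 3377 and 1292 to 2010 CPM in the same groups. The part of those cells in the Zyx and Sprr1a values was not tested.

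**Figure D3:**
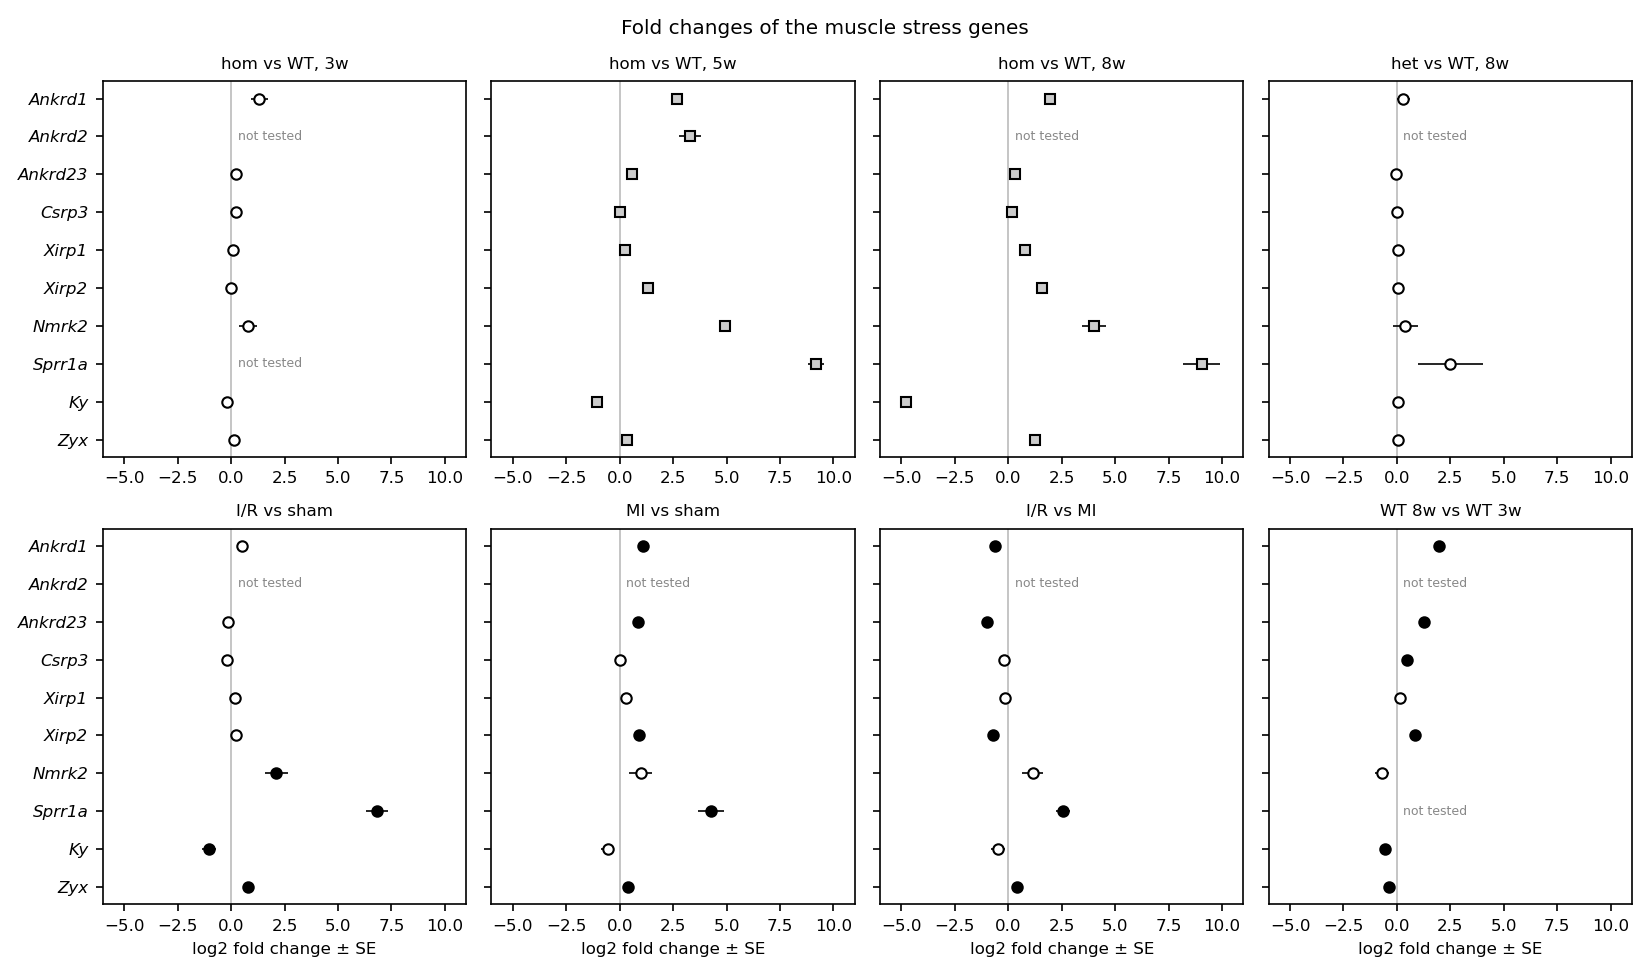
Log2 fold change of each member with its standard error in 8 comparisons, from edgeR; filled circles passed at an adjusted p under 0.05 over all genes, open circles did not, and grey squares are the homozygous contrasts at 5 and 8 weeks, shown as a description. Sprr1a lies at 6.84 in I/R and 4.27 in MI against sham, Xirp2 and Ankrd23 are filled in MI and open in I/R, and no circle is filled in the heterozygous panel.

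Counted by comparison, and as a description alone, 9 of the 10 members were past the threshold in homozygous against wild type hearts at 5 weeks (8 higher, 1 lower), where 43.7% of all genes tested were, and 7 of 9 at 8 weeks (6 higher, 1 lower), where 59.8% were. Ankrd2 was in the 5-week fit through its reads in homozygous hearts. Homozygous against heterozygous hearts also gave 7 of 9 (6 higher, 1 lower), where 61.9% of all genes passed and 32% were higher. Nothing is read from these 3 counts, since the contrasts are taken to have served to choose the genes. The counts come from the same edgeR fits and threshold, and no p of a single member is given for these contrasts. In I/R against sham 4 of 9 tested members passed, Sprr1a, Nmrk2 and Zyx higher and Ky lower, against 31% of all genes. In MI against sham 5 of 9 passed, Sprr1a, Ankrd1, Xirp2, Ankrd23 and Zyx, all higher, against 11.4% of all genes in either direction and 6.62% higher. In I/R against MI 5 of 9 passed, Sprr1a and Zyx higher in I/R and Ankrd1, Xirp2 and Ankrd23 lower, against 20.1% of all genes in either direction, 11.2% higher and 8.84% lower. Both injury groups were set against the same 4 shams. Sprr1a, with 18 reads over those shams, was in that fit through its reads in I/R and MI hearts. Nothing is read from its part in the surgery counts. In wild type hearts at 8 against 3 weeks 6 of 8 passed, 4 higher (Ankrd1, Ankrd23, Xirp2 and Csrp3) and 2 lower (Ky and Zyx), against 16.2% of all genes in either direction and 8.44% higher.

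Heterozygous hearts did not differ by any test. Of 9 members tested none passed against wild type hearts of 8 weeks, and none had an unadjusted p under 0.05 with edgeR, nor was any called by DESeq2 or limma-voom, while 0% of all 14314 genes passed. Sprr1a, counted among the 9, had 6 reads over the wild type hearts and was in that fit through its reads in homozygous hearts. Sprr1a was at 0.220, 2.47, 0.115 and 0.251 CPM in heterozygous hearts, and the second heart, with 41 reads against 2 to 4 in the others, was also the highest heterozygous heart for Ankrd1 (2395 CPM), Nmrk2 (16.3 CPM) and Xirp2 (753 CPM). The fitted Sprr1a difference was 2.50 ± 1.53 (log2, SE, edgeR adjusted p = 1), and 0.58 without that heart. That heart also held the lowest sum of cardiomyocyte markers, 85627 CPM, and the highest of fibroblast markers, 2408 CPM, of the heterozygous group. Homozygous hearts stood apart from heterozygous ones by 6.56 ± 0.59 for Sprr1a, -4.86 ± 0.22 for Ky, 3.59 ± 0.48 for Nmrk2 and 1.65 ± 0.27 for Ankrd1, given as a description.

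Nothing passed at 3 weeks either. Of 8 members tested none was called between homozygous and wild type hearts, 2 had an unadjusted p under 0.05 with edgeR, and DESeq2 and limma-voom called none. Of all 13427 genes 0% passed with edgeR, while DESeq2 called 118 genes. The third homozygous heart was the highest of its group for Ankrd1 (1444 CPM), Nmrk2 (24.3 CPM), Sprr1a (0.667 CPM, 12 reads), Ankrd23 (419 CPM) and Zyx (151 CPM). It also held the lowest sum of cardiomyocyte markers, 85475 CPM, and the highest of fibroblast markers, 4429 CPM, among the homozygous hearts of 3 weeks.

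Ordered by group mean, most neighbours overlapped. For Sprr1a the homozygous groups of 5 and 8 weeks and the I/R group overlapped each other, MI stood alone below them, and the 6 remaining groups lay lower. For Ankrd1 the homozygous groups of 5 and 8 weeks and the MI group, at 4664 ± 423, 4371 ± 723 and 4348 ± 1144 CPM (SD, n = 4 each), overlapped at the top, with no overlap between MI and the I/R group next in order. For Ky the homozygous hearts of 8 weeks were alone at the bottom, and for Zyx they were alone at the top. For Xirp2 the homozygous hearts of 8 weeks came first at 1658 ± 518 CPM, then MI at 1067 ± 226 and homozygous hearts of 5 weeks at 1012 ± 178 CPM (SD, n = 4 each), all 3 overlapping. For Nmrk2 the homozygous hearts of 5 weeks came first at 187 ± 19.1 CPM and overlapped those of 8 weeks at 90.9 ± 57.4 CPM, through the fourth 8-week heart.

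Among 11440 genes with a group mean of at least 5 CPM in some group, those whose log2 group means followed a member most closely over the 10 groups were sought. For Ankrd1 it was Nppb, the B-type natriuretic peptide (r = 0.974), at 765.4 to 1157 CPM in homozygous hearts of 8 weeks and 125 to 183 CPM in wild type hearts. For Xirp2, Prnp, the prion protein, was among the closest (r = 0.989), and for Nmrk2 it was Nans, a sialic acid synthase (r = 0.969). For Sprr1a it was Lgals3 (galectin 3, abundant in macrophages, r = 0.986), at 112 ± 65.1 CPM in I/R, 19.8 ± 5.01 in MI and 3.71 ± 1.09 in sham hearts (SD, n = 4 each), with Lgals1 close behind (r = 0.983). For Ky it was Mrm3, a mitochondrial rRNA methyltransferase (r = 0.992), and Dhrs7c, a short-chain dehydrogenase of muscle (r = 0.986), which at 8 weeks averaged 13.4 ± 5.24 CPM in homozygous hearts, against 122 ± 17.5 CPM in wild type hearts. These are descriptions over 10 means, with no p. Among the members Nmrk2 and Sprr1a followed each other at r = 0.897, and Ky ran against all 9 others, at r between -0.388 with Ankrd2 and -0.835 with Xirp2.

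Lists of genes around the members, with the members left out, were counted in the same fits. They were chosen with earlier results of these data known, so their counts are a description and not an independent test. The genes named from them were picked by smallest p. TMM sets the bulk of genes near no change, and scaling by library size instead put the median of all genes at 0.19 in homozygous against wild type hearts at 8 weeks, 0.21 in I/R and 0.11 in MI (log2), against 0.02, -0.02 and -0.00 with TMM, so list counts are relative to that bulk and are given under both scalings where they part. Of fetal and stress genes, those the failing heart switches on, 14 of 16 tested were higher and none lower in homozygous against wild type hearts at 8 weeks, where 30.8% of all genes were higher and 29% lower. In I/R 10 of 15 were higher (16.9% of all genes) and in MI 7 of 15 (6.62% of all genes), and none was lower in either. With the 12-week shams alone 6 were higher in I/R. The median of the list was 2.37 at 8 weeks, 0.88 in I/R and 1.27 in MI (log2), against 0.02, -0.02 and -0.00 over all genes. At 8 weeks Serpina3n, a secreted protease inhibitor, averaged 1252 ± 552 CPM in homozygous hearts, against 11.1 ± 2.42 CPM in wild type hearts, a rise of 6.82 ± 0.51 (SE, edgeR adjusted p = 7.9e-07), and rose by 2.18 ± 0.49 in I/R (edgeR adjusted p = 0.00353), a call lost with the 12-week shams alone. Uchl1, a ubiquitin hydrolase, rose by 3.91 ± 0.31 at 8 weeks, 0.86 ± 0.16 in I/R and 1.71 ± 0.16 in MI (edgeR adjusted p = 9.89e-07, 0.000926 and 3.89e-05). Runx1, a transcription factor, rose by 2.48 ± 0.27 in I/R and 1.45 ± 0.28 in MI (edgeR adjusted p = 1.2e-05 and 0.00507).

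The list around Ky, of fibre maintenance genes, had 8 of 14 lower and 3 higher at 8 weeks (29% and 30.8% of all genes). In I/R 8 of 14 were lower and 1 higher (14.1% and 16.9% of all genes). In MI 1 was lower and 2 higher (4.77% and 6.62% of all genes). The medians were -0.58, -0.28 and 0.04. With scaling by library size 7 were lower at 8 weeks and none in I/R, with the 12-week shams alone 3 were lower in I/R, and without the fourth I/R heart 4. Unc45b, a myosin chaperone, fell by 1.40 ± 0.12 at 8 weeks and 0.37 ± 0.08 in I/R (log2, SE, edgeR adjusted p = 1.28e-06 and 0.00405). Lmod3, a thin filament nucleator, averaged 18.7 ± 12.1 CPM in homozygous hearts of 8 weeks, against 130 ± 16.5 CPM in wild type hearts, and fell by 2.79 ± 0.36 (edgeR adjusted p = 2.98e-05). Klhl41, a stabilizer of thin filament proteins, fell by 0.38 ± 0.08 in I/R (edgeR adjusted p = 0.00222), and the I/R calls of Unc45b and Klhl41 were lost with scaling by library size. Anxa2, a calcium-binding annexin, went against the list with a rise of 1.57 ± 0.20 at 8 weeks and 1.45 ± 0.15 in I/R (edgeR adjusted p = 2.55e-05 and 7.69e-06).

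Around zyxin, 14 of 25 focal adhesion genes were higher and 5 lower in homozygous against wild type hearts at 8 weeks, 12 were higher and 1 lower in I/R, and 5 were higher and none lower in MI, with medians of 0.32, 0.26 and 0.10. Of all genes 30.8% were higher and 29% lower at 8 weeks, 16.9% and 14.1% in I/R, and 6.62% and 4.77% in MI. With scaling by library size 17 were higher and 2 lower at 8 weeks, 15 higher and none lower in I/R and 9 higher in MI. Without the second wild type heart 9 were higher at 8 weeks, without the second sham 7 in I/R and 3 in MI, and without the second MI heart or with the 20-week shams alone 2 in MI. Wild type growth went the other way, with 9 lower and none higher at 8 against 3 weeks (7.81% of all genes lower). Tes, a LIM partner of zyxin, rose by 1.72 ± 0.18 at 8 weeks and 1.39 ± 0.22 in I/R (log2, SE, edgeR adjusted p = 6.97e-06 and 0.000217). Actn1, a non-muscle alpha-actinin, rose by 0.95 ± 0.12, 1.20 ± 0.15 and 0.71 ± 0.15 at 8 weeks, in I/R and in MI (edgeR adjusted p = 3.52e-05, 4.25e-05 and 0.00937). Enah, an actin elongation factor, rose by 1.30 ± 0.16 at 8 weeks and 1.07 ± 0.20 in MI (edgeR adjusted p = 1.94e-05 and 0.00378), while its 0.22 ± 0.20 in I/R did not pass (edgeR adjusted p = 0.448).

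Genes of titin, the Z-disc and LIM proteins had 10 of 28 higher and 7 lower at 8 weeks, shares near those of all genes (30.8% and 29%). In I/R 4 of 27 were higher and 10 lower (16.9% and 14.1% of all genes), and in MI 4 of 27 were higher and none lower (6.62% and 4.77%), with medians of -0.06, -0.30 and 0.15. With scaling by library size 7 were higher and 5 lower in I/R and 8 higher in MI, with the 12-week shams alone 3 were lower in I/R, and in MI 2 were higher with the 20-week shams alone or without MI heart 1, 2 or 3 or sham 2 or 4. Pdlim3, a Z-disc adaptor, rose by 2.50 ± 0.17 at 8 weeks (log2, SE, edgeR adjusted p = 5.48e-07), and its 0.41 ± 0.17 in I/R did not pass (edgeR adjusted p = 0.0849). Csrp2, the smooth muscle relative of Csrp3, rose by 1.58 ± 0.12 at 8 weeks and 1.57 ± 0.17 in I/R (edgeR adjusted p = 8.07e-07 and 1.05e-05). Fhl1, a titin-binding LIM protein, rose by 1.89 ± 0.20 at 8 weeks and 0.46 ± 0.15 in I/R (edgeR adjusted p = 7.28e-06 and 0.0314), the I/R call being lost with the 12-week shams alone and without I/R heart 2 or 3 or sham 1 or 4, and Csrp1 by 0.73 ± 0.10 in I/R (edgeR adjusted p = 7.67e-05).

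Of genes that make and use NAD, the pathway of Nmrk2, 6 of 22 were higher and 8 lower at 8 weeks, near the 30.8% and 29% of all genes. In I/R 5 of 19 were higher and 6 lower (16.9% and 14.1% of all genes), and in MI 2 higher and 4 lower (6.62% and 4.77%), with medians of -0.09, -0.28 and -0.15. With scaling by library size 2 were lower in I/R and 2 in MI. Leaving out 1 heart gave 3 higher at 8 weeks without the second wild type heart, 2 higher in I/R without I/R heart 4 or sham 2, and no gene higher in MI without MI heart 1 or 2 or sham 1, 2 or 4. Those that moved in the opposite direction to Nmrk2 at 8 weeks included Parp1, a large consumer of NAD, which fell by 0.99 ± 0.09, the deacylase Sirt3, which fell by 1.07 ± 0.11, and Naprt, which salvages nicotinic acid and fell by 1.17 ± 0.13 (log2, SE, edgeR adjusted p = 2.94e-06, 7.62e-06 and 7.92e-06). Bst1, an ectoenzyme of NAD breakdown on immune cells, rose by 2.55 ± 0.35 at 8 weeks and 2.79 ± 0.42 in I/R (edgeR adjusted p = 4.47e-05 and 0.000161). Nmrk1, the related kinase found in most tissues, was at -0.34 in homozygous against wild type hearts at 8 weeks and -0.12 in I/R, and neither passed (edgeR adjusted p = 0.116 and 0.748).

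Ankrd1 is a known target of YAP with TEAD factors, and of the listed targets of that pair 10 of 18 were higher and 4 lower at 8 weeks, 6 higher and 1 lower in I/R and 4 higher and none lower in MI, with medians of 0.50, 0.01 and -0.03. The shares over all genes were 30.8% higher and 29% lower at 8 weeks, 16.9% and 14.1% in I/R, and 6.62% and 4.77% in MI. With scaling by library size 12 were higher and 3 lower at 8 weeks, and none was lower in I/R. Ccn2, a matricellular growth factor, averaged 1764 ± 331 CPM in homozygous hearts of 8 weeks, against 64.9 ± 14.8 CPM in wild type hearts, and rose by 4.77 ± 0.36, by 1.83 ± 0.31 in I/R and by 1.62 ± 0.31 in MI (log2, SE, edgeR adjusted p = 8.37e-07, 0.000439 and 0.00446). Axl, a receptor kinase, rose by 1.51 ± 0.11 at 8 weeks, and Myof (myoferlin) by 1.66 ± 0.13 (edgeR adjusted p = 6.92e-07 and 9.97e-07). Of targets of SRF and its MRTF partners 7 of 21 were higher, near the share of all genes, and 2 lower at 8 weeks, 11 higher and 1 lower in I/R, and 3 higher and none lower in MI, with medians of 0.13, 0.58 and 0.10. With scaling by library size 9 were higher and 1 lower at 8 weeks, 13 higher and none lower in I/R and 6 higher in MI. Without the third wild type heart 4 were higher at 8 weeks, without the third sham 5 in MI, and with the 20-week shams alone 1 in MI. Flna (filamin A) and Actb (beta-actin) rose by 0.86 ± 0.10 and 0.99 ± 0.13 in I/R (edgeR adjusted p = 2.52e-05 and 5.32e-05), while at 8 weeks they were at -0.02 ± 0.11 and 0.13 ± 0.18 (edgeR adjusted p = 0.883 and 0.563). Myl9, a smooth muscle myosin light chain, rose by 0.53 ± 0.14 at 8 weeks and Fhl2, a heart LIM protein, fell by 1.17 ± 0.19 (edgeR adjusted p = 0.00535 and 0.000222). At 8 weeks fibroblast markers summed to 5264 to 10211 CPM in homozygous hearts, against 1541 to 1737 CPM in wild type hearts, and their part in these list counts was not tested.

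**Figure D4:**
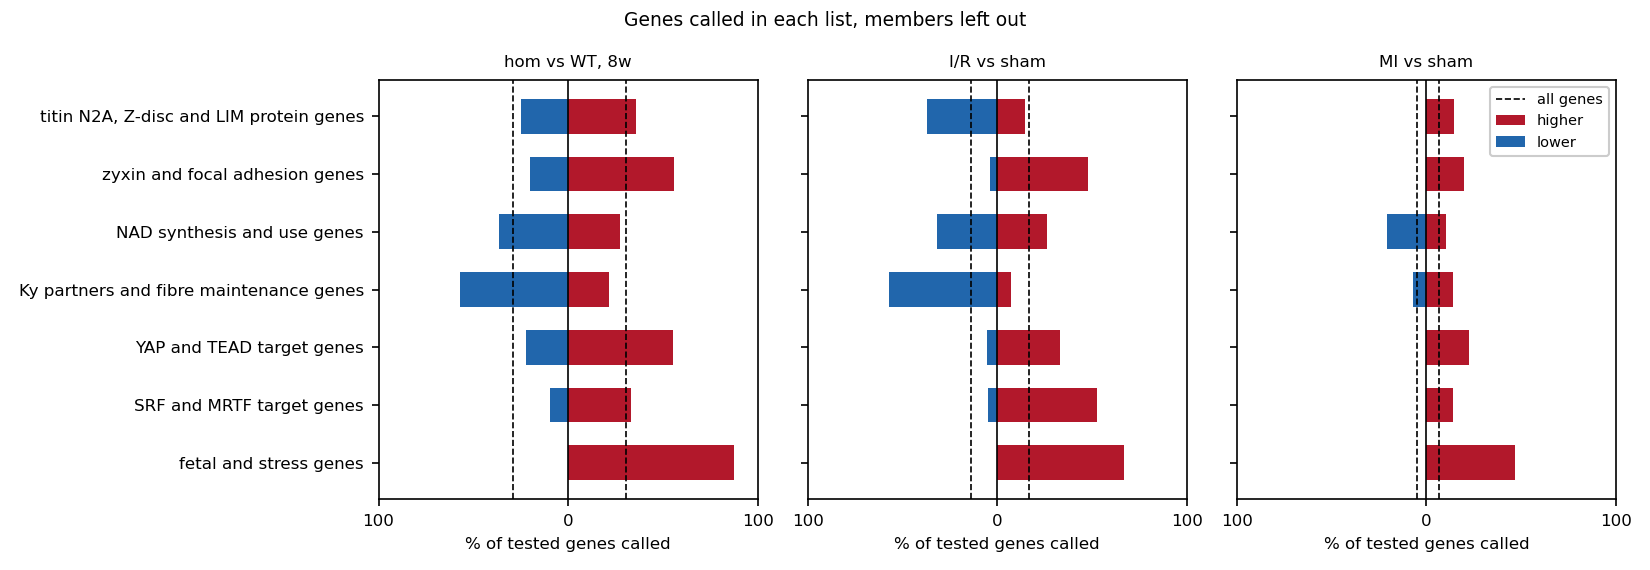
Share of the tested genes of each of 7 lists called higher (right of 0, red) and lower (left of 0, blue) in homozygous against wild type hearts at 8 weeks, I/R against sham and MI against sham, with the members left out (the cornified envelope list, with 1 gene tested, is not drawn); dashed lines are the same shares over all genes tested. The lists were chosen with earlier results of these data known. Of the lists drawn, in homozygous hearts and in I/R the fetal and stress genes lean furthest right and the genes around Ky furthest left. With scaling by library size instead of TMM, none of the genes around Ky was lower in I/R.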

How the data were processed

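Left ventricular RNA of 39 mouse hearts was measured. Per the labels' protocols, Trizol was used to extract total RNA, and a TruSeq stranded kit for mRNA to build the libraries. STAR 2.7.3a, the build mm10 and Subread 2.0.0 (featureCounts) come from the submitters' processing notes. Each deposited value is a raw count, a whole number for 1 gene in 1 library. The annotation release and strand setting behind the counts are not given in the sources used, which leaves genes that overlap others uncertain. Gene positions are those of GENCODE vM21 (GRCm38), which gave a symbol for 36345 of the 38293 gene IDs, and promoters from RefSeq.

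From these counts, groups taken from the labels were compared with edgeR 4.0.16 in R 4.3.3 (filterByExpr, TMM, quasi-likelihood test, Benjamini-Hochberg adjustment over all genes tested, threshold 0.05). Each fit held the groups of 1 age, the surgery set or the wild type ages. Standard errors come from the log2 fold change over the root of its F statistic. Levels are CPM of TMM-scaled library sizes, so a fold change can differ slightly from the ratio of 2 means. The scripts were tested on simulated counts. Alternatives were DESeq2 1.42.0, limma-voom (limma 3.58.1), RLE and library size scaling, no filter, 1 fit of all libraries, leaving out each heart, a replicate block and shams of 1 age. In 57 pairs of replicates none was identical. The labels do not say that equal replicate numbers mark a shared litter or day, and deviations of same-numbered hearts correlated at -0.107 to 0.247, so the numbers were not used as pairs. Nothing says more of the mice than the labels do, and the p-values reflect only how far these hearts vary, counting error included.

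The members and the gene lists were chosen with earlier results of these data known. Besides the members, the genes named are, of each list, the 3 with the smallest p in homozygous against wild type hearts at 8 weeks and the 2 with the smallest p in I/R against sham among those that passed, and the 3 with the closest pattern to each of 5 members. One gene under that rule is not reported here. Nmrk1, Sprr1b and Pln fall outside that rule and were added after their values were seen.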

Additional observations from a re-analysis of the deposited data

Results flagged for a closer look

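Of 90 sets of 4 hearts (a member in a group), 9 held 1 heart whose gap to the nearest other was over the 95% limit of Dixon's test relative to the range of its group; chance alone gives about 1 in 20. In MI hearts Ankrd1 was at 6063 CPM in the second heart and 3716 to 3814 CPM in the other 3. In heterozygous hearts of 8 weeks the second heart was apart for Nmrk2, at 16.3 against 4.14 to 5.34 CPM, and for Sprr1a, at 2.47 against 0.115 to 0.251 CPM, and the first heart was apart for Ankrd23, at 413 against 577 to 587 CPM. In homozygous hearts of 5 weeks the first heart was apart for Ankrd23, at 633 against 526 to 542 CPM, and the third for Zyx, at 98.7 against 107 to 108 CPM. Very low counts gave the other 3. Ankrd2 was at 0.590 CPM in the fourth wild type heart of 5 weeks and 0.0871 to 0.0946 CPM in the rest, and at 0.671 CPM in the first MI heart and 0.271 to 0.303 CPM in the rest, and Sprr1a was at 0 in the fourth wild type heart of 5 weeks and 0.174 to 0.189 CPM in the rest.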

How the results depend on the processing

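Of the values of single members under the alternatives, 1122 stayed on their side of the threshold, 15 came to pass it and 37 no longer passed it; of the genes named from the lists the same counts were 3405, 38 and 71. The sign differed in 32 member values and 117 values of list genes, of which 0 passed under either setting. The cause of each change was not tested. The number of members called was 0 for homozygous against wild type hearts at 3 weeks and 1 in the fit of all 39 libraries (Ankrd1, edgeR adjusted p = 0.0468). It was 0 for heterozygous against wild type hearts under every alternative run. It was 4 in I/R against sham, with 3 to 6 when 1 heart was left out, and 5 in MI against sham, with 3 to 5 when 1 heart was left out (3 without MI heart 1, 2 or 3 or sham 2) and 3 with the 20-week shams alone. I/R against MI gave 5, with 3 (without I/R heart 2) to 6 when 1 heart was left out and 4 to 7 otherwise, and wild type hearts at 8 against 3 weeks gave 6 (5 to 8).

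Scaling by library size moved the split of all called genes. Homozygous against wild type hearts had 2969 higher and 2852 lower at 5 weeks (5388 and 1411 with library size), and 4404 and 4149 at 8 weeks (5403 and 3086), and homozygous against heterozygous hearts 4576 and 4288 (5970 and 2934). I/R had 2301 and 1921 (4189 and 431), MI 901 and 649 (1406 and 317), and I/R against MI 1527 and 1203 (2356 and 569). Under that scaling Ankrd1 passed in I/R at 0.72 and Ky, at -0.80, did not. Calls over all genes also moved at 3 weeks, where edgeR made 0, to 118 with DESeq2, 25 with no filter and 40 in the fit of all 39 libraries. They moved in I/R to 2136 with the 12-week shams alone against 4222, in MI to 941 with the 20-week shams alone against 1550, and in wild type growth to 1254 in the fit of all 39 libraries against 2245.

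With the replicate number as a block the counts of members called were 0 at 3 weeks, 0 for heterozygous against wild type hearts and 6 in wild type growth, as without it, and 6 for I/R against MI, where Ky came to pass (edgeR adjusted p = 0.0156). Same-numbered hearts deviated together at r of -0.107 to 0.247, so the numbers do not pair them. No paired analysis was possible for I/R or MI against sham because the shams carry their own numbering within 2 ages.

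Depth limits Sprr1a and Ankrd2 most, with 0 to 10 reads a library in several groups, so their folds there are loosely fixed. The shams mix 2 ages, and with 2 shams of 1 age each test has less power. Groups of 3 or 4 hearts leave small differences undetected, and the tissue is not sorted by cell type, so levels per cell are not measured.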
